A study of Mus musculus with 12 samples.

Results

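Oviduct epithelium genes divided the 12 ovary samples of this series into 5 samples with a high signal, called oviduct-rich here, and 7 with a low signal, called oviduct-poor. The rich samples are OC1, OC4, OE1, OE3 and OE4, and the poor samples are OC2, OC3, OE2, OP1, OP2, OP3 and OP4. They were chosen on the scanner signals of genes such as Ovgp1, Wfdc2 and Foxj1, so every difference between rich and poor samples below is a description, and no test of it was made. The ovaries came from C57BL/6J females, mice of an inbred strain, at 2 months of age, with 4 females as biological replicates in each of 3 diet groups. OC mice received a normal diet, OE mice a diet deficient in vitamin D only during early life, and OP mice that diet only in the peripubertal period. The ovaries were minced whole, and the RNA of 2 mice of the same diet was hybridised to each of 6 Agilent arrays, odd replicates in Cy3 and even replicates in Cy5. The 8 control and early-life samples lay on 1 slide and the 4 peripubertal samples on the other.

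The oviduct is the tube that takes up the ovulated egg. In the mouse it is coiled tightly against the ovary, and its opening lies inside the bursa that encloses the ovary. Its lining consists of multiciliated cells, whose beating cilia move fluid and the egg, and of secretory cells, which release glycoproteins, antimicrobial proteins and protease inhibitors. Foxj1 is the transcription factor that drives formation of motile cilia, Pax8 is a transcription factor of the secretory cells, Ovgp1 encodes the oviduct-specific glycoprotein, and Wfdc2 encodes a small secreted protein with a WAP domain, a fold found in protease inhibitors.

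The rich class held 2 of 4 control and 3 of 4 early-life samples, and 0 of 4 peripubertal samples. Diet and class are therefore only partly separable, and slide, peripubertal diet and low oviduct signal cannot be told apart in the OP samples. Group names are those of the scanner files. The deposited value table names them otherwise: its 4 control columns follow early-life scanner channels and its 4 early-life columns control channels (correlation across features 0.9998), while its 4 peripubertal columns matched no channel well (highest correlation 0.874 to 0.897). It is not known which naming is right. With the table's names, the rich class would hold 3 control and 2 early-life samples. The split itself rests on the scanner channels and does not change with the names. Channels had median signals of 147 to 331 intensity units and backgrounds of 17.5 to 35, with 59.3% to 65.5% of probes well above background; precision is limited by the 6 arrays.

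The 4 marker genes separated the classes on the scale used for choosing them, the log2 of the mean signal minus the median background, with 1 exception. For Ovgp1 (probe at chr3:105789989-105790048, mm9), the lowest rich value on that scale was 14.74 and the highest poor value 12.81. For Foxj1 (chr11:116192214-116192273) these were 11.30 and 10.08, and for Pax8 (chr2:24276147-24276206) 8.70 and 8.19. The brighter Wfdc2 probe (chr2:164393947-164394006) overlapped, with the lowest rich value at 10.61 and the highest poor value at 11.64, while the other Wfdc2 probe (chr2:164389616-164389675) did not, at 10.32 and 9.89. No annotation of mm9 was used, so exon and UTR are not given for these positions.

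All further values are log2 intensities after background correction and normalization between arrays, on which 1 unit is a 2-fold difference. Ovgp1 measured 16.14 in OC4, 17.83 in OE1, 15.45 in OE3 and 17.54 in OE4, and in the poor samples it ran from 8.56 in OP3 over a median of 9.37 to 11.998 in OP2. The Ovgp1 spots of OC1 and OC2 were marked as outliers by the scanner software, so these samples have no value there. With those spots kept, Ovgp1 measured 16.63 in OC1 and 12.14 in OC2. Foxj1 measured 11.85 in OC1, 11.88 in OC4, 13.22 in OE1, 12.27 in OE3 and 13.42 in OE4. In the poor samples Foxj1 ranged from 6.92 to 9.78 with a median of 7.999, and its 2 highest poor values were those of OP2 and OE2. Pax8 measured 9.30, 9.38, 10.88, 10.24 and 11.41 in OC1, OC4, OE1, OE3 and OE4, against 6.998 to 8.02 with a median of 7.50 in the poor samples. Wfdc2 measured 11.17, 10.92, 14.08, 12.96 and 14.68 in the same rich samples, and its highest poor value, 11.08 in OE2, lay above OC4. In these genes the 3 early-life rich samples were higher than both control rich samples, except that OE3 had a lower Ovgp1 value than OC4 and OC1.

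**Figure D1:**
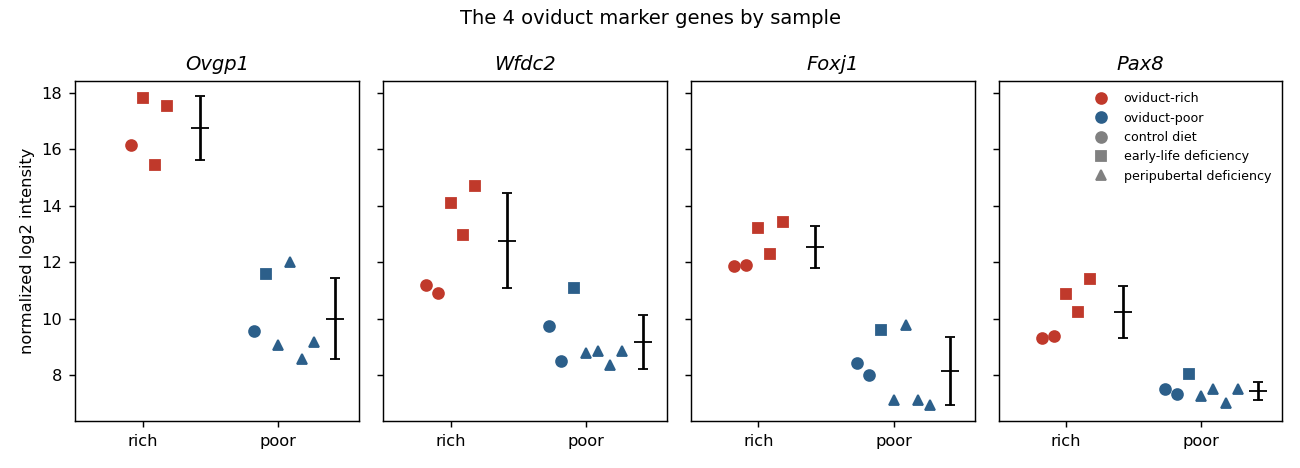
Normalized log2 intensity of Ovgp1, Wfdc2, Foxj1 and Pax8 in each oviduct-rich (red) and oviduct-poor (blue) sample, with the diet group as marker shape and the class mean ± SD as black bars. Foxj1 runs from 11.85 to 13.42 in the 5 rich samples and from 6.92 to 9.78 in the 7 poor samples, and Wfdc2 of OE2 (11.08) overlaps the rich samples; Ovgp1 has no value in OC1 and OC2.

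A gene was taken to follow the split where it had a value in all 12 samples, every rich sample lay on the same side of every poor sample, and the class means differed by at least 1 log2 unit. Of 14768 genes and transcripts with 12 values, 463 were higher in the rich samples by this rule (3.14%) and 0 were lower (0.00%). Of the 463, 186 differed by at least 2 and 56 by at least 3 log2 units, and 66 were not well above background in any poor sample. The median difference was 1.83 over the 463 genes and -0.04 over all genes with 12 values. Without a minimum on the difference, 655 genes (4.44%) had every rich sample above every poor sample and 39 (0.264%) the reverse. The largest of these lower genes were Cfhr2, at -0.68, and Bfsp1, at -0.61, so the split ran almost wholly in one direction. Just inside the minimum of 1 lay Kcnk5, a potassium channel gene, at 1.01, and just outside it Llgl2, a cell polarity gene, at 1.00.

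**Figure D2:**
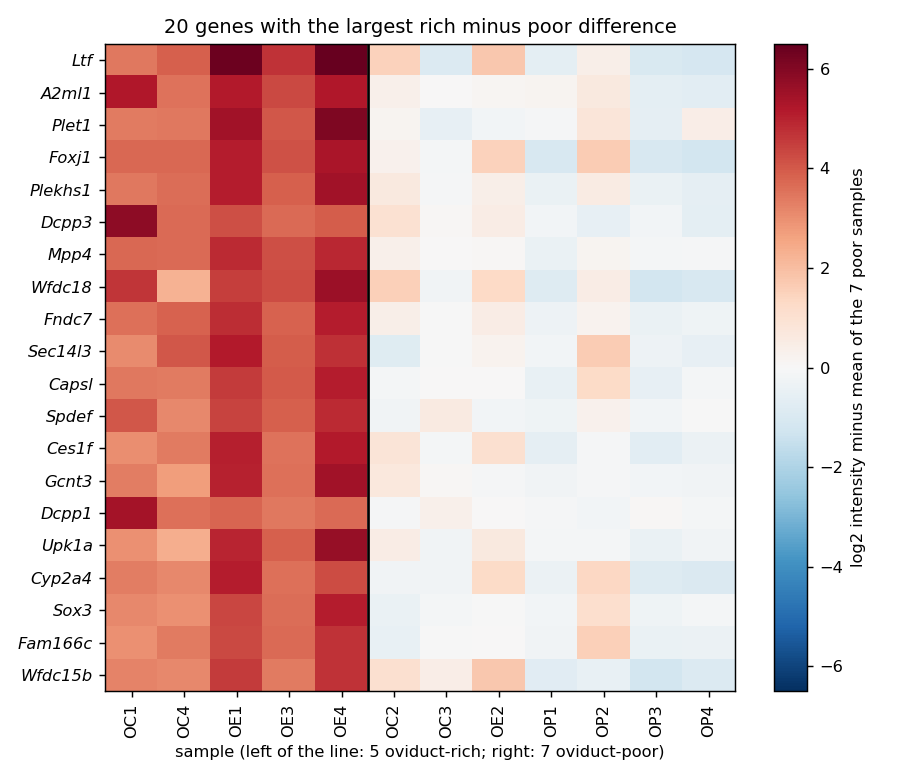
Log2 intensity minus the mean of the 7 poor samples, as a colour scale, for the 20 named genes with the largest rich minus poor difference (rows) in the 5 oviduct-rich samples (left of the line) and the 7 oviduct-poor samples (right). The rich columns are red throughout, and OP2 and OE2 are the poor columns with the most red cells.

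The 20 largest differences included secreted defence proteins and protease inhibitors. Ltf, which encodes the iron-binding antimicrobial protein lactoferrin, led with 12.96 in OC1, 13.39 in OC4, 15.90 in OE1, 14.22 in OE3 and 16.28 in OE4. Its poor values ran from 8.43 over a median of 8.87 to 11.28. The class means were 14.55 ± 1.48 (SD, n = 5) and 9.53 ± 1.22 (SD, n = 7), a difference of 5.02 or 32.6-fold. OC2 and OE2, at 11.03 and 11.28, were the highest poor samples and stayed under every rich sample. A2ml1, an alpha-2-macroglobulin-like protease inhibitor, differed by 4.67, from 11.68 ± 0.74 (SD, n = 5) to 7.01 ± 0.50 (SD, n = 7). The WAP-domain genes Wfdc18 and Wfdc15b differed by 4.25 and 3.80. In both, OE2 and OC2 were the highest poor samples, with Wfdc18 at 9.23 and 9.46 and Wfdc15b at 9.19 and 8.49. Of 13 Wfdc genes with 12 values, 3 followed the split, the third being Wfdc15a, against 3.14% of all genes. The median difference of the 14 Wfdc genes measured was 0.12. The Wfdc and the other gene families given by name stem were chosen after their values were seen.

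Epithelial surface proteins and regulators were also among the 20. Plet1, a surface protein of epithelial progenitors, measured 14.94 ± 1.22 (SD, n = 5) and 10.46 ± 0.50 (SD, n = 7), a difference of 4.47. Upk1a, a uroplakin of the apical epithelial membrane, differed by 3.97. Gcnt3, an enzyme that builds branched mucin-type sugars, differed by 4.02 and was well above background in 1 poor sample. Spdef, a transcription factor of secretory epithelia, measured 11.68, 10.76, 12.06, 11.53 and 12.49 in OC1, OC4, OE1, OE3 and OE4 and 7.39 to 8.25 in the poor samples, with a difference of 4.05. The transcription factor Sox3 differed by 3.82. Its highest poor value, 7.93, was that of OP2, and the other poor samples lay between 6.39 and 6.81. Outside the 20 and named after its values were seen, Foxa2, a forkhead factor of endodermal and uterine gland epithelium, differed by 3.08.

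The remaining genes of the 20 were Foxj1 (4.40), the pleckstrin-domain gene Plekhs1 (4.30), Mpp4 (4.27), a membrane scaffold gene, the fibronectin-domain gene Fndc7 (4.24), Sec14l3 (4.19), a lipid-binding protein gene, the calcium-binding protein gene Capsl (4.09), the carboxylesterase gene Ces1f (4.03), the cytochrome P450 gene Cyp2a4 (3.87), Fam166c (3.81), and the genes Dcpp3 (4.27) and Dcpp1 (3.98) of the demilune cell and parotid proteins. Ces1f, Cyp2a4 and the Dcpp genes have near-identical copies in the mouse genome, so a probe may read more than the gene it is named for. Of the genes in the 20, A2ml1, Cyp2a4, Fam166c, Plet1 and Sec14l3 had another measured probe, and each of these also separated the classes, with smaller differences of 1.21 (Fam166c) to 3.88 (A2ml1). Over all 463 genes, 101 further probes had 12 values; 99 were higher in the rich samples on average and 77 separated the classes.

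Of the 20 gene lists examined, the motile cilia list held the most genes that followed the split. Of 55 axoneme and cilium assembly genes measured, 45 had 12 values and 36 of these followed the split (80.0%, against 3.14% of all genes). The median difference of the 55 was 2.15, and 53 were higher and 2 lower in the rich samples on average. Tctex1d4, a dynein light chain gene, differed by 3.80, Tmem212 by 3.64, and Sntn, which encodes a protein of the ciliary tip, by 3.11. Tekt1, a filament protein inside the axonemal doublets, measured 10.57 in OC1, 11.22 in OC4, 12.37 in OE1, 11.50 in OE3 and 12.65 in OE4, against 7.86 to 9.46 with a median of 8.37 in the poor samples. OP2 and OE2, at 9.46 and 9.37, were again the highest poor samples. All 3 tektin genes measured followed the split, as did 4 of 6 radial spoke genes of the Rsph stem, 13 of 27 Cfap genes and 3 of 11 axonemal dynein heavy chain genes (Dnah6, Dnah11 and Dnah12).

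Ccdc153, with the largest difference of the cilia list (5.11), has values in only 3 rich samples and was therefore not counted. Drc1, a dynein regulator, likewise lacks a value in OE1 and differed by 3.30. Dnah5, an outer arm dynein heavy chain, differed by 2.93 but overlapped, its lowest rich value being 8.30 and its highest poor value 11.38. Dnah2 and Ccdc114 were the 2 members with lower means in the rich samples, at -0.04 and -0.15. Among 12 regulators of multiciliated cell formation with 12 values, 3 followed the split (against 3.14% of all genes): Foxj1, Myb (2.61), a transcription factor active early in multiciliogenesis, and Ankrd66 (1.19), which was not well above background in any poor sample and was at least 2.28-fold higher. Foxj1 was used to choose the classes, so its place in this count is no separate result. Rfx2, which activates ciliary genes, differed by 0.69, and Deup1, which builds the deuterosome that multiplies centrioles, by 0.82. Mcidas, which acts at the start of multiciliogenesis, measured 13.43 ± 0.24 (SD, n = 5) in rich and 13.59 ± 0.37 (SD, n = 7) in poor samples.

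The promoters of these genes are shown because RFX factors, which control ciliary genes together with Foxj1, bind a DNA element called the X-box. RefSeq promoters (GRCm38.p6) were at hand for 333 of the 463 genes and 30 of the 36 cilia genes. The 250 bases upstream of each start were searched on both strands for 3 motifs: an X-box (GTTNCC and GGNAAC with any 2 bases between), its half-site GTTGCCA, which can lie within an X-box, and the forkhead element TGTTTAC. The half-site was in the promoters of 7 of 30 cilia genes that followed the split (23.3%), of 31 of 303 other genes that followed it (10.2%) and of 1133 of 27025 genes of the whole promoter table (4.19%). In each sequence the capitals mark the half-site as found on either strand.
Sntn, chr14:13670798-13670827, plus strand: tgtcattattcaGTTGCCAtggaatgaatg
Tekt1, chr11:72361883-72361912, minus strand: cgttgcgtccgtccgGTTGCCAtagagacc
Lrrc23, chr6:124779868-124779897, minus strand: ggcctcgtaaccTGGCAACtactgagctac
Hydin, chr8:110266947-110266976, plus strand: cactctgcggttgctgTGGCAACagatggt
Pifo, chr3:106001498-106001527, minus strand: ccgcggttccgttccctTGGCAACgtagta
Kif9, chr9:110476955-110476984, plus strand: tgcaggcttcctGTTGCCAtggcgactgtg
Mns1, chr9:72438444-72438473, plus strand: agcgctcctgccTGGCAACgaagactctcc

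These 7 genes differed between rich and poor samples by 1.35 (Mns1) to 3.11 (Sntn). The half-site ended 6 bases (Pifo) to 151 bases (Lrrc23) before the start of transcription. The whole X-box was in 4 of the 333 promoters (1.20%, against 0.444% of the whole table), and 2 of the 4 belonged to the cilia list. Capitals mark it in Pifo, a ciliary targeting gene, in Ccdc151, a docking factor of the outer dynein arm, in Btbd17 and in Iqca.
Pifo, chr3:106001498-106001527, minus strand: ccgcggttccGTTCCCTTGGCAACgtagta
Ccdc151, chr9:22002647-22002676, minus strand: cgcgggcgGTTTCCTTGGGAACgtgggcgg
Btbd17, chr11:114796009-114796038, minus strand: cttaagtaGTTGCCTAGGCAACagcaggga
Iqca, chr1:90153515-90153544, minus strand: gccttgcaGTTGCCACGGAAACggaaacat

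The forkhead element was in 3 of the 30 cilia promoters, in 15 of all 333 (4.505%) and in 3.54% of the whole table. None of the 3 motifs was in the 12 promoters at hand of epithelial junction and keratin genes that followed the split. These matches are descriptions of the letters in these windows and say nothing of binding.

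Epithelial junction and keratin genes formed the second set. Of 36 measured, 32 had 12 values and 20 of these followed the split (62.5%, against 3.14% of all genes), with a median difference of 1.35 over the 36. Cldn7, a tight junction claudin, measured 11.05, 10.52, 12.60, 11.59 and 12.99 in OC1, OC4, OE1, OE3 and OE4, against 8.24 to 9.63 with a median of 8.54 in the poor samples. Its highest poor value was that of OE2. Cldn3 differed by 2.94, the small GTPase gene Rab25 of epithelial membrane recycling by 2.98, the junction scaffold gene Tjp3 by 2.65 and the cadherin gene Cdh1 by 2.43. The epithelial transcription factors Grhl2 and Elf3 differed by 2.74 and 2.26. Grhl2 was well above background in 2 of 7 poor samples. The keratins Krt19, Krt8, Krt7 and Krt23 of the list followed the split, and Krt18, which lacks a value in OE3, differed by 2.32. By name stem, 6 of 22 Krt genes with 12 values followed it (median difference 0.26), and 5 of 16 Cldn genes (median 0.0027). Of the 5 desmosomal genes of the list, Pkp1 followed it (1.69), while Dsp, Dsg2, Dsc2 and Pkp3 differed by 0.27, 0.52, 0.15 and 0.02, and overlapped.

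Of 20 measured genes of the secretory cell list, 15 had 12 values and 4 followed the split (26.7%, against 3.14% of all genes): Ltf, Pax8, Lcn2 (1.82), an iron-sequestering antimicrobial protein, and Sox17 (1.66), a transcription factor of the tract epithelium. Pax8 belongs to the marker genes of the split, so its place in this count is no separate result. Fxyd4, a regulator of the sodium pump, differed by 5.28 but has no value in OC4. The complement gene C3 differed by 1.78 and overlapped, since OP4 (14.10) lay above OC4 (13.80). Spp1, Gpx3 and Plac8 were lower in the rich samples on average, at -1.15, -0.99 and -0.43, and also overlapped. The list thus held genes on both sides, with 15 higher and 5 lower.

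Smaller numbers followed in the other epithelial lists, against 3.14% of all genes. Of 6 hormone-responsive tract genes with 12 values 3 did: Ltf, Cyp26a1 (3.19), which degrades retinoic acid, and the calcium binder Calb1 (2.85). The oestrogen receptor gene Esr1 measured 10.59 ± 0.63 (SD, n = 5) and 9.74 ± 0.23 (SD, n = 7). Of 14 ion and water transport genes 2 did, the zinc transporter Slc39a4 (3.11) and the carbonic anhydrase Car2 (1.86). Of 11 Müllerian duct regulators 2 did, Wnt11 (1.87) and Klf5 (1.63), while the homeobox gene Hoxd10 was lower on average by -0.87. Of 13 surface epithelium and mesothelium genes 3 did, Cdh1, Krt19 and Krt8, all of them also in the junction and keratin list. The mesothelial genes Msln and Upk3b differed by 0.59 and 0.62 and overlapped.

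Lists for the oviduct's muscle coat and for the ovary itself held no gene that followed the split. With a share of 3.14% among all genes and 8 to 13 genes a list, a count of 0 is near that share and is not a result about these cells. Of smooth muscle genes 0 of 13 followed, with a median difference of -0.17, and OC1 was the rich sample with the highest level in this list. Likewise 0 of 9 granulosa, 0 of 9 theca, 0 of 8 luteal and 0 of 10 oocyte genes followed it. The mean granulosa level was 12.70 to 13.12 in the rich and 12.78 to 13.19 in the poor samples, so ovarian markers were high in every sample. Luteal genes, only some of which serve progesterone synthesis, were lower in the rich samples on average in 14 of 14 measured, with a median of -0.50. The per-sample means of this list overlapped (13.25 to 14.08 against 13.82 to 14.50). Theca genes had a median of -0.56. In minced whole tissue, more cells of a type and more RNA per cell cannot be told apart.

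Markers of further cell types are given by their medians, since follower counts of 0 or 1 in lists of 7 to 16 genes lie near the 3.14% of all genes. Macrophage genes were lower on average in 12 of 12 measured, with a median of -0.60, but the median was -0.16 within the control and 0.29 within the early-life samples. Endothelial genes had a median of -0.20 and lymphocyte genes 0.06, with 0 followers each. Red blood cell genes had 0 followers of 7 and a median of 0.16. Of 13 fat cell genes only Cidea followed, a lipid droplet protein, at 3.63. The fat cell genes Adipoq, Fabp4 and Cfd differed by 1.00, 1.05 and 1.33 and overlapped, with OE1 far above the other samples (Adipoq 13.12). Of 16 interferon-response genes only Usp18 followed, at 1.09. Cholesterol synthesis and uptake genes had 0 followers of 15 and a median of -0.25.

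**Figure D3:**
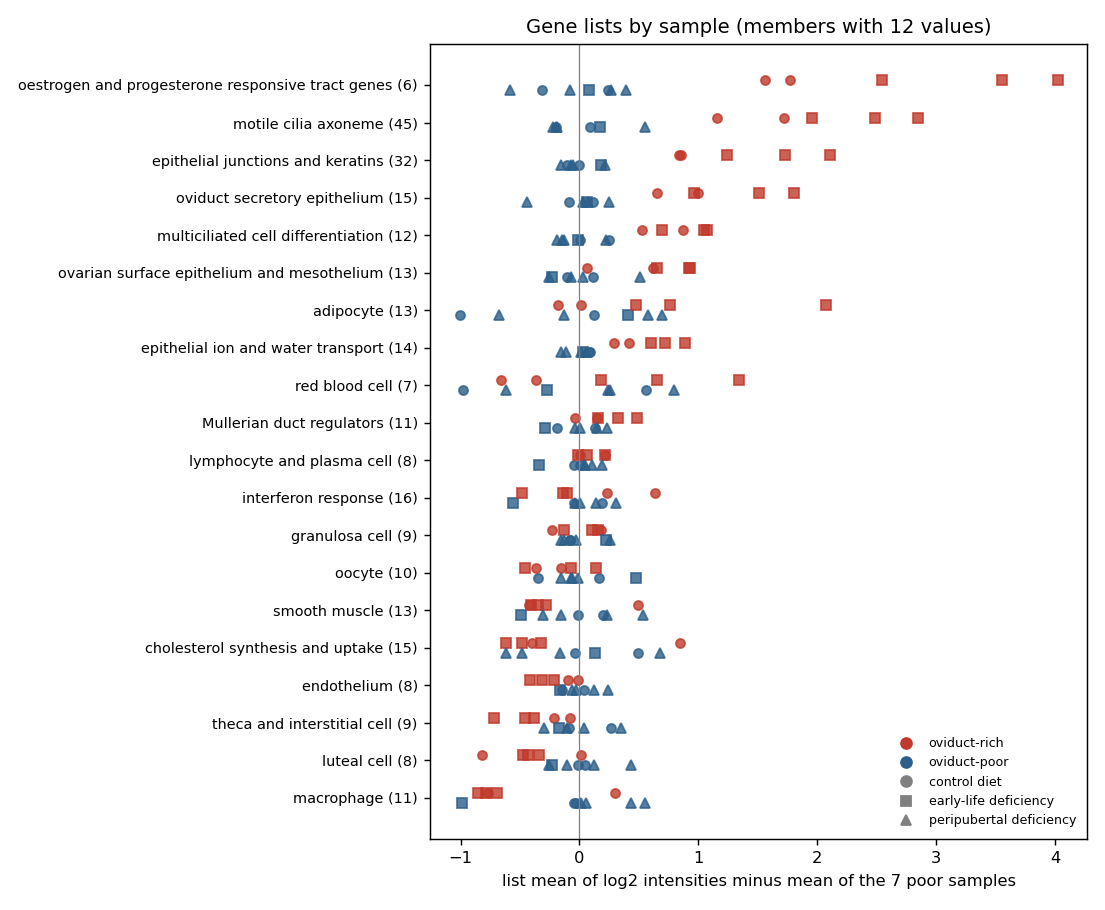
Mean log2 intensity of each gene list per sample, minus the mean of the 7 poor samples, over the members with 12 values (their number in parentheses), with class as colour and diet as marker shape. The 5 rich samples lie to the right of all poor samples in the motile cilia (8.95 to 10.64 against 7.57 to 8.34) and the epithelial junction lists (9.67 to 10.95 against 8.69 to 9.05). They also do so in the secretory, multiciliated cell, ion and water transport and hormone-responsive lists (10.67 to 13.13 against 8.52 to 9.50 in the last). They overlap the poor samples in the smooth muscle, granulosa and oocyte lists.

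The 463 genes did not differ by the same amount in every rich sample. OE4 was the highest of all samples in 429 genes, OE1 in 23, OC1 in 9 and OE3 in 2. The median deviation from the poor mean was 2.75 in OE4, 2.26 in OE1, 1.68 in OE3, 1.30 in OC4 and 1.19 in OC1, and OC1 was the lowest rich sample in 285 genes and OC4 in 161. The early-life rich samples thus exceeded the control rich samples on average in 454 of 463 genes, by a median of 0.93. This excess was largest for Adam22, a membrane protein of the disintegrin family (3.31), Padi2, an enzyme that converts arginine to citrulline (2.49), Serpina1e, an alpha-1-antitrypsin copy (2.44), Ltf (2.29) and Upk1a (2.18). These genes were named after their values were seen. Adam22 measured 12.54 in OE3 and 11.87 in OE4, which share an array, but 9.10 in OE1. It measured 7.62 in OC1 and 8.11 in OC4. With 2 samples against 3, whose class was set by the same genes, no test was made.

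The 9 genes that were higher in the control rich samples included all 3 Dcpp genes measured. Dcpp3 measured 13.34 in OC1, 11.22 in OC4, 11.73 in OE1, 11.20 in OE3 and 11.43 in OE4, and 6.86 to 8.499 in the poor samples. Dcpp1 measured 12.05 in OC1 and 10.08 to 10.42 in the other rich samples. No poor sample was well above background for Dcpp1. The plain ratio of its rich to its poor mean was 15.8-fold, and the "at least" fold was the same. Dcpp2 measured 10.28 in OC1, and 8.04 to 8.69 in the other rich samples. OC1, among the lowest of the rich samples in most genes, was thus the highest in this family. The other 6 were LOC100046808, 9530002B09Rik, Fam47e, Synpr, Gpx2 and Usp18. Early-life minus control rich differences in this set ran from -0.98 (LOC100046808, a predicted locus) to -0.02 (Usp18).

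**Figure D4:**
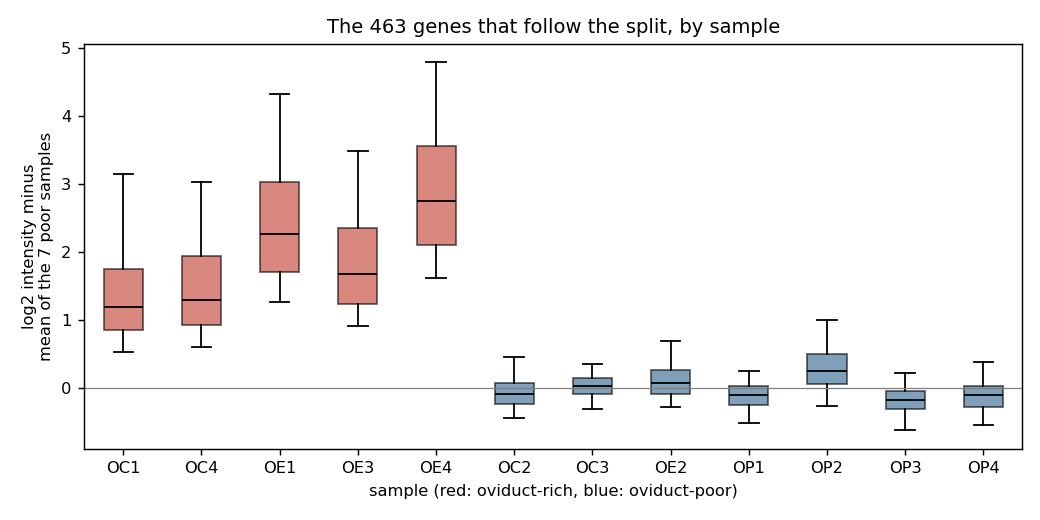
Deviation of the 463 genes that follow the split from the mean of the 7 poor samples, by sample, as boxes (quartiles, with the median as a line) and whiskers that leave out the lowest and highest 5% of genes; red boxes are oviduct-rich and blue boxes oviduct-poor samples. Medians run from 1.19 in OC1 to 2.75 in OE4 among the rich, and OP2 is the highest poor sample at 0.25.

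Among the poor samples OP2 had the highest median deviation from the poor mean over the 463 genes, at 0.25. OE2, at 0.07, lay near OC3, at 0.04. OP2 and OE2 were each the highest poor sample in different genes. OP2 was the highest poor sample in 229 of the 463 genes and OE2 in 89. In the 36 cilia genes OP2 was the highest poor sample in 26, with a median of 0.72 above the other 6 poor samples, while in the 20 junction and keratin genes it was so in 2, with a median of -0.09. OE2 was the highest poor sample in 8 of the 20 junction and keratin genes, with a median of 0.24, and in 6 of the 36 cilia genes, with a median of 0.11. Foxj1 shows this for OP2, at 9.78 against 6.92 to 7.10 in the other peripubertal samples, and the mean of the cilia list was 8.34 in OP2 and 7.57 to 7.60 in the other 3. Among poor samples with a value OP2 was also the highest in Ovgp1 (11.998), but Pax8, at 7.52, and Wfdc2, at 8.85, lay near those of the other peripubertal samples. OE2 was highest of the poor samples in Wfdc2, Pax8, Ltf, Elf3 and Rab25. The difference between these patterns was not tested. Neither sample reached the lowest rich sample in any of the 463 genes, since the rule asks for that.

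On 3 arrays a rich sample was hybridised with a poor sample of the same diet, slide and array. The rule that chose the 463 genes already puts the rich sample higher in each of them, so only sizes are described. The median difference over the 463 genes was 1.30 for OC1 minus OC2, 1.29 for OC4 minus OC3 and 2.20 for OE1 minus OE2, and over all genes it was 0.0034, 0.010 and 0.011. The rich sample was in Cy3 for OC1 and OE1 and in Cy5 for OC4. Differences of at least 1 in favour of the rich sample were found in 3.12%, 3.24% and 5.66% of all genes on these arrays. On the 3 arrays with samples of 1 class, differences of at least 1 in favour of OE4, OP2 and OP4 were found in 2.40%, 1.37% and 0.88% of all genes. On the array of the rich samples OE3 and OE4, OE4 was higher in 460 of 463 genes (99.4%, against 55.0% of all genes), by a median of 1.01. On the 2 arrays of poor samples, OP2 exceeded OP1 in 397 genes (85.7%, against 51.1% of all genes), by a median of 0.32. OP4 exceeded OP3 in 261 genes (56.4%, near the 52.1% of all genes), by a median of 0.03.

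**Figure D5:**
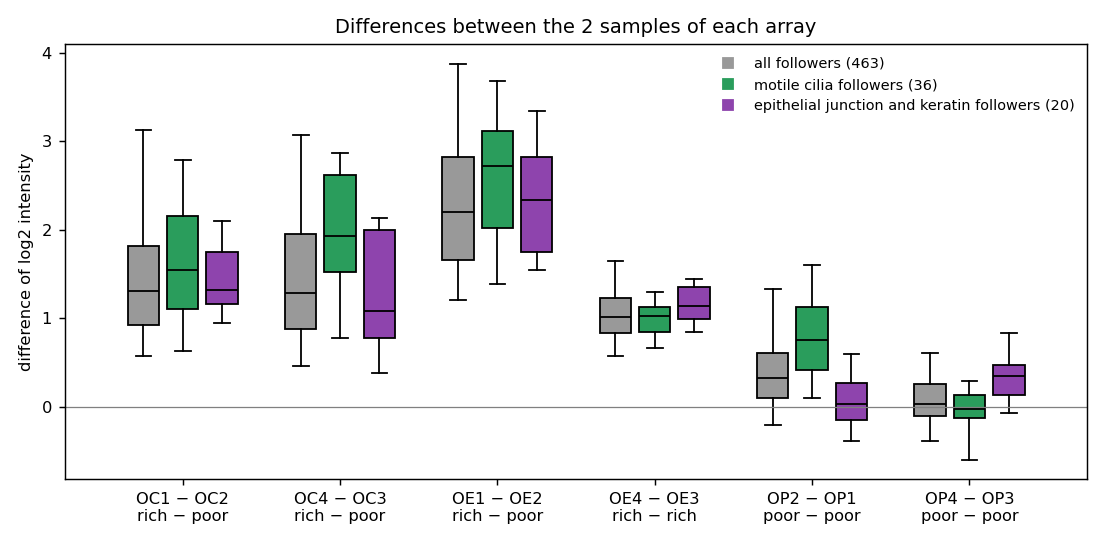
Difference in log2 intensity between the 2 samples of each of the 6 arrays, for all 463 genes that follow the split (grey), the 36 cilia genes among them (green) and the 20 junction and keratin genes among them (purple), as boxes (quartiles) with whiskers that leave out the lowest and highest 5% of genes. The grey medians are 1.30, 1.29 and 2.20 on the arrays with a rich and a poor sample, 1.01 between the rich samples OE4 and OE3, and 0.32 and 0.03 between poor samples; on the OP2 minus OP1 array the cilia genes lie above the junction and keratin genes.

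Within each diet the split had the same genes on the same side, as the rule requires, and sizes that differed. In the control group, 2 rich against 2 poor samples, the median difference of the 463 genes was 1.23, and 320 differed by at least 1. In the early-life group, 3 rich samples against OE2, the median was 2.15 and 459 differed by at least 1. All 320 genes with at least 1 in the control group had at least 1 in the early-life group too; over all genes with 12 values this held for 346 (2.34%). In the control group A2ml1 differed by 4.18, Plet1 by 3.57 and Foxj1 by 3.65, and in the early-life group by 4.73, 5.35 and 3.37. No rich peripubertal sample exists, so the split cannot be described there.

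The study's own comparisons ask which ovarian genes differ between diets, and the class was spread unevenly over the diet groups. In limma fits with dye as a covariate and array as a random block, 7 genes passed between early-life and control samples (0.0373% of those tested), 56 between peripubertal and control samples (0.298%) and 464 between early-life and peripubertal samples (2.45%), at a Benjamini-Hochberg adjusted p under 0.05. With the replicate number as a block in place of dye, 0 genes passed in the first of these, and 3037 had an unadjusted limma p under 0.05. Of the 463 genes that follow the split, 0 passed in the first, 0 in the second and 1 in the third. Unadjusted p-values of the limma fit were under 0.05 for 15, 1 and 301 of them. Over all genes tested this held for 2599 of 18782, 2123 of 18768 and 4465 of 18916. Their median difference was 1.09 for early life minus control, -0.62 for peripubertal minus control and 1.68 for early life minus peripubertal. The classes were spread unevenly over the groups, so these signs are no independent result. The 3 comparisons share samples. With the names of the deposited table, control and early-life samples would trade places in all 3 of them. The early-life and control groups overlapped widely: the Foxj1 mean was 12.13 ± 1.76 (SD, n = 4) with early-life deficiency, 10.04 ± 2.12 (SD, n = 4) in controls and 7.72 ± 1.37 (SD, n = 4) with peripubertal deficiency.

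The gene that passed was Cbs, cystathionine beta-synthase of the transsulfuration pathway. Early-life samples had a mean of 14.41 ± 1.27 (SD, n = 4) and peripubertal samples one of 10.96 ± 0.40 (SD, n = 4), a difference of 3.45 ± 0.74 (SE; limma adjusted p = 0.0447), with every early-life sample higher than every peripubertal sample. Wfdc2, which does not follow the split by its brighter probe, differed by 4.504 ± 1.004 (SE) between early life and peripubertal samples (limma adjusted p = 0.0482). Wfdc2 was used to choose the classes and Cbs follows the split, while the classes were spread unevenly over these groups. Neither p-value is therefore a result independent of the class. Without OE2, the only poor early-life sample, 347 of the 463 genes passed for early life versus peripubertal and 1538 genes passed in all, against 1 and 464 with it. Without OE2 the early-life samples are all rich and the peripubertal samples all poor. The rule that chose the 463 genes had then already set them apart, so their count is no independent result. Without any other 1 sample except OC4, 0 of the 463 passed and the third comparison gave 2 (without OE1) to 255 (without OP3) genes. The first gave 0 to 85 and the second 0 to 29 genes as each of the 12 samples was left out. With the class as an added covariate, 0, 0 and 3 genes passed in the 3 comparisons in place of 7, 56 and 464, and the median difference of the 463 genes was 0.63, 0.19 and 0.42. That fit has no rich peripubertal sample and 1 poor early-life sample to tell diet from class.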

How the data were processed

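RNA of 12 ovary samples was measured on 6 2-colour arrays. The scanner software was Agilent Feature Extraction 11.0.1.1, with probe positions on mm9, per the file headers. Mean signals and local backgrounds of spots were deposited as intensity, together with a processed intensity that the software had corrected and dye-normalized. A further deposited table gives log2 values whose column medians were found to be 0. Its making is not given in the sources used here, and it served only to check sample names.

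Probes (39429) took gene names from the GRCm38.p6 RefSeq table by accession (27234), symbol (3576) or synonym (565), or kept the file's name (8054). In R 4.3.3 with limma 3.58.1, signals were corrected by normexp (offset 50), then loess and Aquantile, and each channel was used as a log2 value; 2.82% of values, from outlier spots, are missing. A probe had to be well above background in 4 or more of 12 samples, which left 19092 genes, each read from its brightest probe. An "at least" fold is given for genes with no poor sample well above background. It sets the rich mean against the poor mean, with lower poor values raised to the sample's lowest value well above background. Where no poor value is lower than that, as in Dcpp1, it equals the plain fold. Diet groups entered a limma model with a dye term and a random effect of array (correlation 0.286), checked on simulated data, with Benjamini-Hochberg adjustment over all genes. Control and early-life samples with the same replicate number had correlations of deviations from the group means of 0.15 to 0.59 in the 4 pairs. The lowest, 0.15, was that of OC3 and OE3, the only pair of differing class. Differently numbered samples were not compared, so a pairing by number was not tested. What a number stands for is not stated, and dye goes with odd and even numbers.

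The classes, members, 20 gene lists, motifs and rules were chosen with earlier results of these data known. Named are the 4 markers, the 20 genes with the largest rich minus poor difference and a plain symbol, and up to 8 members of each list with the largest differences; further names were chosen after their values were seen. Alternatives were other backgrounds, filters, probe rules, model terms and samples left out. Keeping outlier spots, and leaving out OE2 and OP2 together, were chosen after seeing the data.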

Additional observations from a re-analysis of the deposited data

Results flagged for a closer look

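In 128 groups of 4 samples, formed by the named genes and gene lists in each diet group, 12 had a sample far from the other 3 by Dixon's criterion. Chance gives about 1 in 20 such groups. The genes are not independent, since the same samples recur in them.

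OP2 stood apart among the peripubertal samples in 7 of the 12. Foxj1 measured 9.78 in OP2 against 6.92 to 7.10 in the other 3, Plekhs1 7.83 against 6.70 to 6.86, and Sec14l3 8.70 against 6.49 to 6.84. Sox3 measured 7.93 in OP2 against 6.54 to 6.70, and Fam166c 9.01 against 7.05 to 7.25. The mean of the multiciliated cell differentiation list was 9.08 in OP2 against 8.67 to 8.73, and that of the motile cilia list 8.34 against 7.57 to 7.60.

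OE2, the poor early-life sample, stood apart from the 3 rich early-life samples in 3. Dcpp3 measured 7.98 in OE2 against 11.20 to 11.73, Mpp4 7.07 against 11.15 to 11.88, and Dcpp1 6.64 against 10.08 to 10.42. That OE2 lies lower follows from how the classes were chosen.

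Wfdc2 measured 8.34 in OP3 against 8.77 to 8.85 in the other peripubertal samples. The mean of the luteal list was 13.25 in OC1 against 14.05 to 14.12 in the other control samples.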

How the results depend on the processing

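The count of genes higher in rich samples stayed within 1.5 times the 463 under every alternative run: it was 421 to 537 with 1 sample left out and 458 to 655 otherwise, with 416 to 463 of the 463 shared. Lower genes numbered 0 to 6 with 1 sample left out, 1 with the plain log2 signals, 1 with the processed signals, 39 with no minimum difference, 7 on the slide of the control and early-life arrays alone and 4 without OE2 and OP2. Over the 23 named genes and these settings, 441 differences moved by less than 1 SD and 19 by more, with 0 reversed.

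Calls by diet (early life versus control, peripubertal versus control, early life versus peripubertal; 7, 56 and 464) depended on the model. With no array block they were 125, 154 and 2078, with no dye term 34, 81 and 731, with processed signals 28, 43 and 633, with no filter on dim probes 3, 19 and 328, and with the class as covariate 0, 0 and 3. As each sample was left out they ran from 0 to 85, 0 to 29 and 2 to 1538. With a replicate block in place of the dye term they were 0, 14 and 628. Peripubertal samples had correlations of deviations of -0.14 to 0.30 with same-numbered control samples and -0.28 to 0.07 with same-numbered early-life samples. The cause of these changes was not tested. In the 0 counts of early life versus control, 2344 genes with the class as covariate and 3037 with the replicate block had an unadjusted limma p under 0.05, and 2002 of peripubertal versus control with the class. Signals near background limit the low end: 66 of the 463 genes had no poor sample well above it.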
